A study of Rattus norvegicus with 3 samples.

Results

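The Slc25 genes encode the mitochondrial carriers, and the genes described here were those with a probe set whose single symbol in the annotation of the array platform starts with Slc25a and a number. On the Clariom S rat array, 38 of 15037 genes met this rule, each with 1 probe set, out of 24834 probe sets in all. RNA came from male Wistar rats that were 7 weeks old. The control group was given double distilled water and the Tl groups were given thallium sulfate intraperitoneally, and the kidneys were taken 2 days (Tl 2 days group) or 5 days (Tl 5 days group) later. For each condition 1 array was deposited, so no value has a replicate, no difference was tested, and the spread between rats is not known. The groups held 4, 4 and 5 rats, of which 2 of the last died before the end, and whether an array held RNA of a single rat or of several is not given in the sources used here. The tissue and the dose are not given alike everywhere: the sample titles name kidney and the source field names spleen, while the dose is 30 mg/kg in the design text and the methods and 40 mg/kg in the sample labels, and it was given every day by the design text and labels but a single time by the methods.

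Mitochondrial carriers are small proteins of the inner mitochondrial membrane that exchange metabolites between the cytosol and the matrix. They move ADP and ATP, phosphate, the acids of the malate-aspartate shuttle, acylcarnitines, amino acids, cofactors and iron, and so set which fuels the mitochondria of a cell can use. The proximal tubule of the kidney is rich in mitochondria and oxidizes mainly fatty acids, and several carriers are abundant there. Each carrier is built by a nuclear gene, made in the cytosol and imported with the help of small chaperones between the membranes.

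The deposited values are log2 signals, so a difference of 1 between arrays is a 2-fold difference, and a member is called here when it lay past that 2-fold limit. Labels and tissue were checked with marker genes. On the control array the median log2 signal of 14 proximal tubule markers was 15.47, whereas 2 measured genes of B cells and 5 of T cells, the cells that define spleen, lay between 2.73 and 4.67, all under the 95th percentile of the 63 ERCC spike-in controls (6.83). Markers of several cell types differed between the arrays. Of all genes, 6.03% were over 2-fold higher and 4.65% lower at 2 days, and 5.37% and 4.87% at 5 days. All 5 genes of the thick ascending limb were over 2-fold lower in both Tl groups, with medians of -2.63 and -3.53, and their signals ranged from 14.73 to 18.81 in control, 13.34 to 16.07 at 2 days and 9.24 to 14.57 at 5 days. Of 14 proximal tubule markers, 4 were over 2-fold lower and 0 higher at 2 days, and 3 were lower and 4 higher at 5 days, with medians of -0.51 and -0.04. Their signals ranged from 6.62 to 19.14, from 5.92 to 18.45 and from 5.10 to 18.69 in control and at 2 and 5 days. Of 7 macrophage genes, 3 and 4 were over 2-fold higher, with signals from 4.88 to 15.75 in control, 5.76 to 16.48 at 2 days and 6.14 to 17.81 at 5 days. Only 3 of the 7 were above the ERCC 95th percentile in control. Csf1r (6.65), C1qb (6.41) and Cd14 (4.88), which passed the limit at 1 or both times, were under it, so their folds start from dim values. Of 6 collecting duct genes, 4 were over 2-fold lower at both times, with medians of -1.25 and -1.97 and signals from 8.45 to 13.56 in control, 8.88 to 11.09 at 2 days and 6.22 to 11.03 at 5 days. Of 3 genes of the distal convoluted tubule, 2 were lower at both times, with medians of -1.45 and -2.80 and signals from 5.45 to 16.81, 5.00 to 15.36 and 5.45 to 14.01. Of 4 endothelial genes, 0 were lower at 2 days and 3 at 5 days, with medians of -0.24 and -1.36 and signals from 9.02 to 13.41, 8.80 to 12.57 and 8.80 to 11.91. Of 3 podocyte genes, 0 and 1 were lower, with medians of -0.02 and -0.78 and signals from 9.33 to 15.09, 9.18 to 15.07 and 8.71 to 13.63. The part of these cells in the values of the carriers was not tested, and in bulk tissue fewer cells of a type and less RNA per cell cannot be told apart.

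The 38 carriers had control signals from 2.35 to 16.60 on the log2 scale, and most of them differed by less than 2-fold between arrays. In the Tl 2 days group 25 carriers were below the control group, 11 above and 2 equal to it, with a median difference of -0.31 and quartiles at -0.60 and 0.21. Over all genes the median was 0.00 with quartiles at -0.22 and 0.21. Past the 2-fold limit, 1 carrier was higher and 3 were lower at 2 days (2.63% and 7.89%), against 6.03% of all genes higher and 4.65% lower. With each array centred on its median, 1 carrier was higher and 4 were lower, against 5.00% and 5.81% of all genes. After 5 days 22 carriers were below the control group, 12 above and 4 equal, with a median of -0.10 and quartiles at -0.64 and 0.24. Past the limit were then 3 higher and 4 lower (7.89% and 10.5%), against 5.37% and 4.87% of all genes. Between the Tl arrays, with no use of control, the Tl 5 days array had 4 carriers over 2-fold higher and 0 lower (10.5% and 0%), against 2.21% and 3.07% of all genes, and the median was 0.00. Of the 25 carriers below control after 2 days, 10 were closer to control after 5 days (40.0%, against 48.5% of the genes below control). These counts are small, and probe sets named as negative controls passed the limit too: of 1153 such probe sets, 8.33% were higher and 11.6% lower at 2 days, and 10.9% and 7.89% at 5 days. Between the Tl arrays 11.4% of them were higher and 6.24% lower, so the 10.5% of carriers higher there was near the share of the negative controls. These probe sets were not all dim: in control their median log2 signal was 6.56, the 95th percentile 10.94 and the highest 19.93. At 2 and 5 days their 95th percentile was 11.04 and 10.99. Of the carriers past 2-fold in any comparison, only Slc25a23, Slc25a25 and Slc25a30 had a signal above that percentile on any array. The counts of called carriers describe these arrays only. Equal values carry little information here, because exact ties between arrays were common: 11.6% of all genes had the same value on all 3 arrays, 23.1% of the 1504 dimmest and 2.46% of the 1504 brightest, and so had 51 of the 63 ERCC probe sets, which serve here only as a reference for dim signals.

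**Figure D1:**
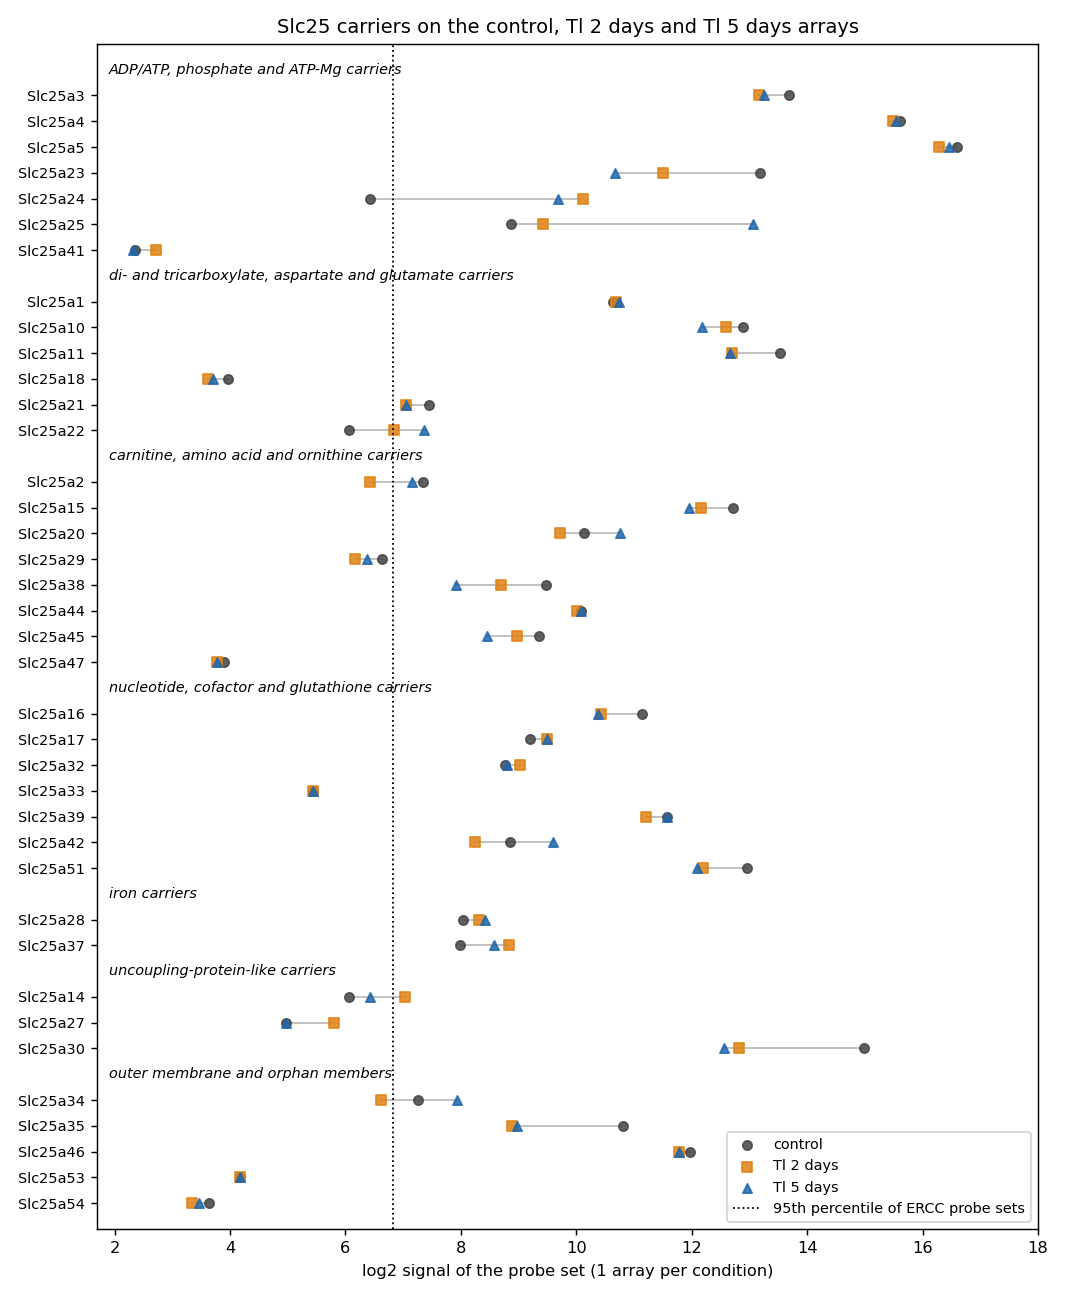
Log2 signal (x axis) of each of the 38 Slc25 carriers (y axis, grouped by role) on the control (circles), Tl 2 days (squares) and Tl 5 days (triangles) arrays, 1 array per condition; the dotted line is the ERCC 95th percentile at 6.83. Both Tl arrays of Slc25a24 and the Tl 5 days array of Slc25a25 lie far to the right of control, Slc25a23, Slc25a30 and Slc25a35 lie to the left of theirs, and most other carriers lie within 2-fold on all arrays. Grey lines join the arrays of a carrier.

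**Figure D2:**
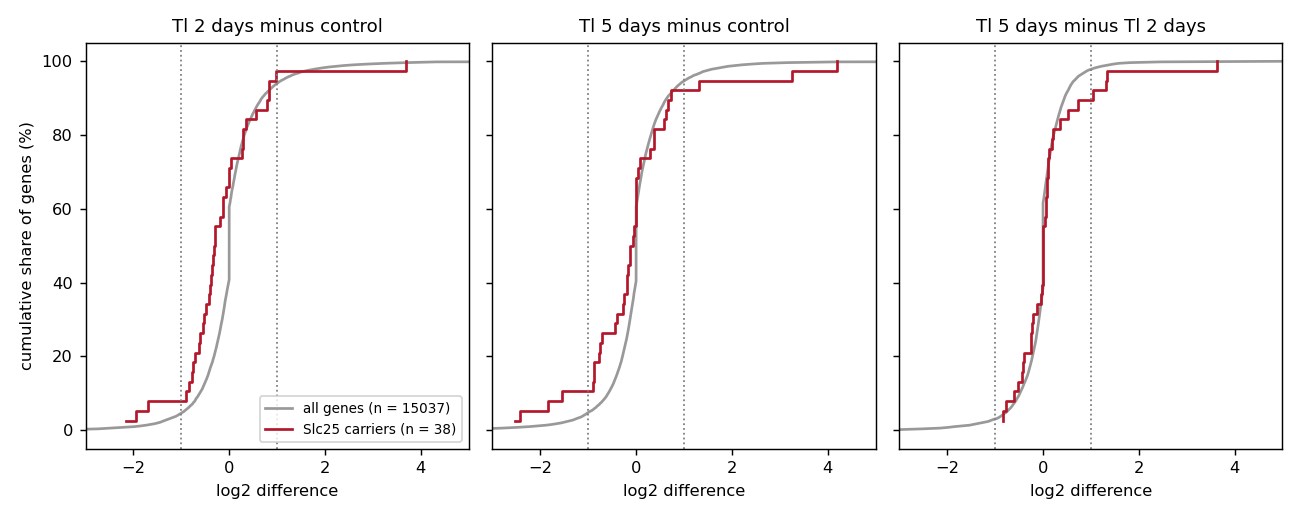
Cumulative share of genes in percent (y axis) against the log2 difference (x axis, shown from -3 to 5) for the 38 carriers and for all 15037 genes in each of the 3 comparisons; dotted lines mark 2-fold. After 2 days the curve of the carriers lies left of that of all genes over most of its length, with medians of -0.31 and 0.00, and after 5 days the medians are -0.10 and 0.00.

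At 5 days the 3 largest differences from control in the family were those of calcium-regulated carriers that exchange ATP-Mg for phosphate and so set the adenine nucleotide pool of the matrix, and they went in opposite directions. At 2 days only Slc25a24 led the family, and Slc25a30 and Slc25a35 differed by more than Slc25a23. Slc25a24, the carrier also known as SCaMC-1, had log2 signals of 6.43 in control, 10.12 at 2 days and 9.69 at 5 days. Both Tl arrays lay above the control array, by 12.9-fold and 9.54-fold, and the control signal was under the 95th percentile of ERCC, so both folds start from a dim value. Slc25a25, also known as SCaMC-2, had log2 signals of 8.87, 9.43 and 13.06 in the same order. Only its Tl 5 days array stood apart, at 18.3-fold above control and 12.4-fold above the Tl 2 days array, while the Tl 2 days array was within the limit at 1.48-fold. Slc25a23, also known as SCaMC-3, had log2 signals of 13.19, 11.49 and 10.67. It was thus 3.24-fold lower at 2 days and 5.75-fold lower at 5 days. Another member of this subfamily, Slc25a41, lay at 2.35, 2.71 and 2.32, below the level of all 63 ERCC probe sets in control, so that no difference of it can be read. Slc25a41 is the neighbour of Slc25a23 in the rat genome, and Slc25a24 overlaps Slc25a54 in the RefSeq annotation. Slc25a54 had dim signals of 3.63, 3.33 and 3.46 on the arrays where Slc25a24 differed most.

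The promoters of the 3 carriers of this subfamily that differed are shown because the same exchange activity is built by genes whose signals differed in time and direction. RefSeq promoter windows on build GRCr8, from 250 bases before to 50 bases after the start of a gene, were found for 34 of the 38 members, and the 250 bases before the start are printed 5′ to 3′ along the strand of the gene. Capitals mark each match, on either strand, to 1 of 4 motifs: the E-box CACGTG, which Myc and its partners bind, the NRF1 core GCGCATGC, the NRF1 short form TGCGCA, a part of longer NRF1 sites, and the CRE TGACGTCA, the site of CREB. The window of Slc25a25 lies within the annotated gene, which begins further upstream, and that of Slc25a24 lies within the overlapping Slc25a54. No window was matched for Slc25a30, Slc25a32, Slc25a37 and Slc25a46.

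Slc25a24 (chr2:199449175-199449424, + strand): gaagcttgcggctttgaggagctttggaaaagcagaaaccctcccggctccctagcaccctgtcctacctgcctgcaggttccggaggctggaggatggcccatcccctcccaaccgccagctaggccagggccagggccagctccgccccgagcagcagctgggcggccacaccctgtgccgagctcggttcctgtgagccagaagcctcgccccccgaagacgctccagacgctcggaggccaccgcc

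Slc25a25 (chr3:36116582-36116831, - strand): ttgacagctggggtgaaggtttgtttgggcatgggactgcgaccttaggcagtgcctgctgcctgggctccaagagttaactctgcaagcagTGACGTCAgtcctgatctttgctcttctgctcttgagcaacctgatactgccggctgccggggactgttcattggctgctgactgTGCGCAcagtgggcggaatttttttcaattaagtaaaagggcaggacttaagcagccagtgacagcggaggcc

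Slc25a23 (chr9:1985366-1985615, - strand): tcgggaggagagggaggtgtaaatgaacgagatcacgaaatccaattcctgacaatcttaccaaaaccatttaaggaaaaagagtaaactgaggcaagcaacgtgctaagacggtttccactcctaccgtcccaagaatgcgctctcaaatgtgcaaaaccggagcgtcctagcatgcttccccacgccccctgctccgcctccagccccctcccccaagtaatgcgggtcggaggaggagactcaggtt

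The upstream sequences of Slc25a24 and Slc25a23 held no capitals, and their GC contents were 68.4% and 53.2%. The window of Slc25a25, with a GC content of 54.4%, held a CRE whose first base was at -158 and the NRF1 short form at -73. Over the whole windows of the members, the E-box was found in 3 of 34 (8.82%, against 7.94% of 12435 promoters of genes on the array), namely those of Slc25a2, Slc25a33 and Slc25a51. The NRF1 core was found in 0 of 34, against 3.72% of all promoters, and the short form in 2 (5.88%, against 10.5%), those of Slc25a3 and Slc25a25. The CRE, which was searched after the sequences had been seen, was found in 2 (5.88%, against 2.56%), those of Slc25a25 and Slc25a33. The signal of Slc25a33, a pyrimidine nucleotide carrier, was dim and tied at 5.43 on all arrays. A match describes the letters of the window, not a bound site.

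**Figure D3:**
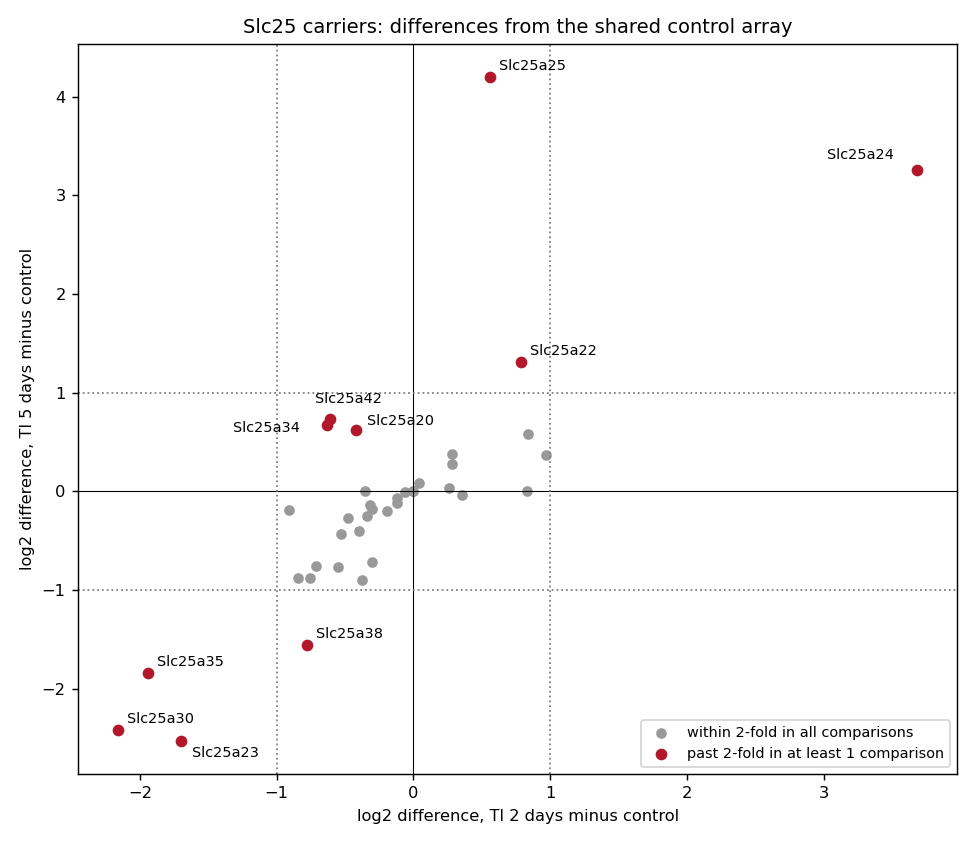
Log2 difference from control of the Tl 2 days array (x axis) and of the Tl 5 days array (y axis) for the 38 carriers; both axes use the same control array, and dotted lines mark 2-fold. Red points are the 10 carriers past 2-fold in at least 1 of the 3 comparisons (26.3%, against 15.6% of all genes), with Slc25a25 at 0.56 and 4.20, Slc25a24 at 3.69 and 3.25, and Slc25a23 at -1.70 and -2.52.

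The carriers that supply the ATP synthase differed little. Slc25a4 and Slc25a5 exchange ADP for ATP across the inner membrane. Slc25a4 had log2 signals of 15.61, 15.49 and 15.55 and Slc25a5 of 16.60, 16.28 and 16.46 in control and at 2 and 5 days. The signal of Slc25a3, which imports phosphate and also carries copper, was 13.69, 13.16 and 13.26. All of them lay below control in both Tl groups, by 0.07 to 0.53 on the log2 scale, and none reached the limit. RefSeq lists pseudogenes of Slc25a5, and whether its probe set also reads them is not given in the sources used here.

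Among the carriers related to the uncoupling proteins, the one first described in kidney stood out. Slc25a30, the kidney mitochondrial carrier protein 1, had log2 signals of 14.98 in control, 12.82 at 2 days and 12.56 at 5 days. Both Tl arrays were lower, 4.46-fold and 5.35-fold, while they differed from each other by only 0.26. The relatives Slc25a14 (6.07, 7.04 and 6.43) and Slc25a27 (4.96, 5.80 and 4.96) were dim, and differed by at most 0.97. Of 5 family members with other symbols, 0 passed the limit in any comparison, against 15.6% of all genes, which says little for so few genes. Ucp2, the uncoupling protein found in many tissues, had the largest difference of these, with signals of 11.05, 11.81 and 11.92, whereas Ucp1, which marks brown fat, lay at 2.70, 2.70 and 2.47. Mtch2, an insertase of the outer membrane, was at 15.05, 15.02 and 14.55.

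The carriers of di- and tricarboxylic acids and of glutamate had medians of -0.32 in both Tl groups. Slc25a11, which exchanges oxoglutarate for malate in the malate-aspartate shuttle, had log2 signals of 13.54, 12.69 and 12.66. These were lower in both Tl groups by 0.85 and 0.88, within the limit. The dicarboxylate carrier Slc25a10 was at 12.89, 12.59 and 12.18, and the citrate carrier Slc25a1, which exports citrate for lipid synthesis, was nearly equal on the arrays at 10.64, 10.68 and 10.73. At 5 days, when 5.37% of all genes were over 2-fold higher, the only one of these 6 past the limit was Slc25a22, a glutamate carrier. Its signals of 6.06, 6.85 and 7.37 gave 1.73-fold and 2.47-fold higher values in the Tl groups, from a control value under the 95th percentile of ERCC. Slc25a21, a carrier of oxodicarboxylates, was at 7.45, 7.06 and 7.06. The other glutamate carrier, Slc25a18, was dim on every array, between 3.62 and 3.96. Of the shuttle's enzymes, Mdh1 differed by -0.91 and -1.20 and Got1 by -0.51 and 0.19, while Got2 differed by 0.25 and 0.05. Mdh2, the mitochondrial malate dehydrogenase, had signals of 13.77, 13.73 and 13.72. Past the limit was thus 1 of the 4 enzymes, Mdh1 after 5 days, when 4.87% of all genes were over 2-fold lower. Counts in such short lists say little. The genes of the aspartate-glutamate carriers were not analysed here.

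Slc25a20, the carrier that brings acylcarnitines into the matrix for oxidation, had log2 signals of 10.14 in control, 9.72 at 2 days and 10.76 at 5 days. It was within the limit against control at both times, at -0.42 and 0.62. Between the Tl arrays it was 2.06-fold higher after 5 days, just past the limit. The other 7 measured genes of the carnitine shuttle were all higher on the Tl 5 days array than on the Tl 2 days array. Their median difference was 0.87, and 3 of them, Cpt1a, Cpt1b and Cpt2, passed the limit. Of all 15037 genes, 5766 were higher in this comparison, and 2.21% were over 2-fold higher. Cpt1c was under the ERCC 95th percentile on every array, at 4.80, 4.43 and 4.89, so its difference says little. Cpt1a, the outer membrane transferase that commits fatty acids to oxidation, had signals of 12.89, 13.35 and 14.58, higher than control by 0.46 after 2 days, within the limit, and by 1.69 after 5 days, past it. Cpt2, which acts inside, was at 9.83, 9.90 and 11.20, with only the Tl 5 days array apart. Cpt1b, the muscle form, was at 7.29, 5.90 and 7.17, below control by 1.39 after 2 days, past the limit but with a dim signal under the ERCC 95th percentile, and by 0.12 after 5 days, within the limit. Slc22a5, the carnitine transporter of the plasma membrane, was at 11.94, 10.94 and 11.81. In the same comparison 5 of 14 proximal tubule markers were over 2-fold higher and 2 lower, with a median of 0.48, and their part in these differences was not tested.

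**Figure D4:**
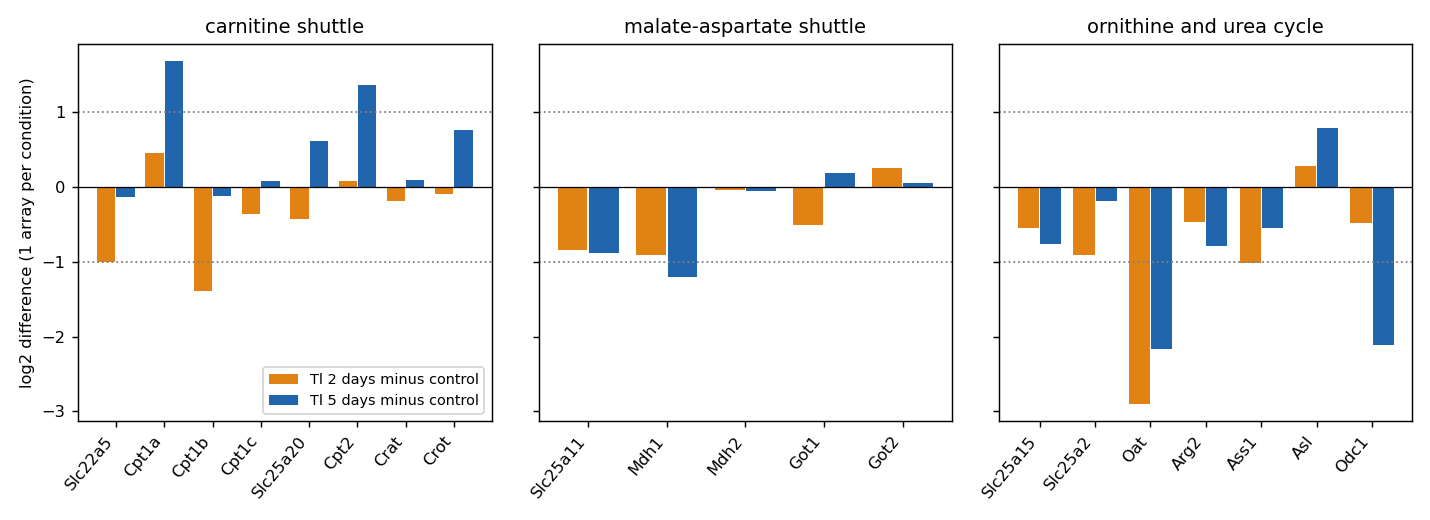
Log2 difference from control (y axis) of the Tl 2 days (orange) and Tl 5 days (blue) arrays for genes of the carnitine shuttle, the malate-aspartate shuttle and the ornithine and urea cycle; bars start at 0, dotted lines mark 2-fold, and there is 1 array per condition. Cpt1a, Slc25a20 and Cpt2 are higher after 5 days than after 2 days, Slc25a11 and Mdh1 are negative at both times, and Oat is the lowest at -2.90 and -2.16.

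The amino acid carriers lay mostly below control. All 8 measured carriers of carnitine, amino acids and ornithine were below control at 2 days, with a median of -0.45, and 7 of 8 at 5 days, with a median of -0.22. Of all 15037 genes, 6126 were below control at 2 days and 6067 at 5 days. Among the 8, Slc25a29 and Slc25a47 were at or below the ERCC 95th percentile on every array, so their differences say little. Slc25a38, which imports glycine for the first step of haem synthesis, had log2 signals of 9.48, 8.70 and 7.92. It was 1.72-fold lower at 2 days, within the limit, and 2.94-fold lower at 5 days, past it. Slc25a15, the carrier that exchanges ornithine for citrulline, was at 12.71, 12.16 and 11.94, and its relative Slc25a2 at 7.34, 6.43 and 7.16. Neither passed the limit. Of 5 ornithine and urea cycle enzymes, Oat and Ass1 were over 2-fold lower after 2 days, and Oat and Odc1 after 5 days. Ass1 was only just past the limit, at -1.015. Of all genes, 4.65% were over 2-fold lower after 2 days and 4.87% after 5 days, and the list is short. Oat, which makes glutamate semialdehyde from ornithine, was at 15.48, 12.58 and 13.32, Odc1, the first enzyme of polyamine synthesis, at 15.90, 15.43 and 13.79, and Ass1, a urea cycle enzyme, at 14.71, 13.70 and 14.17. Slc25a45 differed by -0.38 and -0.90, Slc25a29, a carrier of basic amino acids, by -0.47 and -0.26, and Slc25a44, a carrier of branched-chain amino acids, by -0.06 and 0.00.

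The mitoferrins bring iron into the matrix for haem and iron-sulfur clusters. Slc25a37, mitoferrin 1, is used mainly by red cell precursors and had log2 signals of 7.99, 8.83 and 8.57. Slc25a28, mitoferrin 2, had signals of 8.04, 8.32 and 8.41. Both were above control in both Tl groups, by 0.28 to 0.84, and within the limit. In the same arrays, 6 measured erythroid genes had signals from 2.17 to 15.55 in control, 2.30 to 14.58 at 2 days and 2.30 to 11.03 at 5 days. Of these, 1 was over 2-fold lower after 2 days, Slc4a1 by -3.60, which was also counted above as a collecting duct gene. After 5 days 3 were over 2-fold lower, Slc4a1 by -2.53, Hbb by -4.09 and Hba-a1 by -4.69. Of all genes, 6.03% were over 2-fold higher and 4.65% lower after 2 days, and 5.37% and 4.87% after 5 days. Klf1 and Epor were dim in control, at 2.17 and 3.74. The part of the erythroid genes in the values of the mitoferrins was not tested. Alas2, the red cell enzyme that uses the glycine brought in by Slc25a38, was dim at 5.02, 4.77 and 4.58. Alas1, its form in other tissues, was at 11.15, 11.15 and 11.11. Of 9 measured genes of haem and iron-sulfur synthesis, haem breakdown and iron uptake, Hmox1 was the only one over 2-fold higher in both groups, at 5.84, 9.53 and 7.15, and Tfrc, the transferrin receptor, the only one over 2-fold lower, by -1.67 after 5 days.

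Of 7 carriers of nucleotides, cofactors and glutathione, 0 passed the limit against control. Of all genes, 6.03% were higher and 4.65% lower at 2 days, and 5.37% and 4.87% at 5 days, so a count of 0 in so short a list says little. Slc25a51, which imports NAD, had log2 signals of 12.96, 12.20 and 12.08, lower in both Tl groups by 0.76 and 0.87. Slc25a16, a proposed carrier of coenzyme A, was at 11.13, 10.42 and 10.38. Slc25a42, another carrier linked to coenzyme A, had signals of 8.86, 8.25 and 9.59. It was lower than control after 2 days by 0.61 and higher after 5 days by 0.73, so that the Tl 5 days array was 2.54-fold above the Tl 2 days array. Slc25a39, a glutathione carrier, was at 11.56, 11.21 and 11.56. Slc25a17, a carrier of peroxisomes, was above control by 0.28 at both times, and Slc25a32, a carrier of folate and FAD, by 0.26 and 0.04.

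Among the members whose substrate is less certain, Slc25a35 had log2 signals of 10.82 in control, 8.88 at 2 days and 8.98 at 5 days. Both Tl arrays were lower, 3.83-fold and 3.58-fold, and close to each other. Slc25a34 was at 7.26, 6.62 and 7.93, below control after 2 days and above it after 5 days, a 2.48-fold difference between the Tl arrays that starts from a dim value. Slc25a46, a protein of the outer membrane that acts in fission, was at 11.98, 11.78 and 11.78. Slc25a53 was dim and tied at 4.16 on all arrays. Of all carriers, 25 were above the ERCC 95th percentile on every array and 8 were at or below it on every array, among them Slc25a47, a carrier of liver, at 3.90, 3.78 and 3.78.

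The genes nearest to the 2-fold limit were Slc25a23 (-1.70) past it and Slc25a14 (0.97) short of it at 2 days, and Slc25a22 (1.31) past it and Slc25a45 (-0.90) short of it at 5 days. Exactly equal signals in the control and a Tl array were found for 2 carriers after 2 days and 4 after 5 days. Of all 15037 genes, 2972 and 3030 were equal in the same comparisons. Over both times, 3 carriers were over 2-fold lower in both Tl groups (Slc25a23, Slc25a30 and Slc25a35; 7.89%, against 3.07% of all genes). Over 2-fold higher in both was 1 carrier, Slc25a24 (2.63%, against 3.26% of all genes), and the same control array enters both comparisons.

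Genes that import carriers or share their membranes were compared for context. Of 13 measured genes of the import route, which brings carriers through the outer membrane and between the membranes, 0 passed the limit at either time, and the medians were 0.00 and 0.09. Of all genes, 6.03% were higher and 4.65% lower at 2 days, and 5.37% and 4.87% at 5 days, so this 0 says little. Tomm40, the pore of the outer membrane, had the largest difference of this list after 2 days, with signals of 9.16, 9.72 and 9.42. Of 3 outer membrane channels, Vdac1 was at 17.01, 16.31 and 16.25, with all 3 within the limit. Among 15 other inner membrane transporters, 1 was over 2-fold lower at 2 days, and 2 were lower and 1 higher at 5 days. Mpc1, a subunit of the pyruvate carrier, had signals of 15.17, 13.97 and 13.79 and was lower at both times, and its partner Mpc2 was at 12.42, 11.56 and 11.80. Letm1, a cation exchanger, was lower by 1.02 after 5 days and Sfxn1, a serine transporter, higher by 1.38. Of the 6 genes of citrate use and lipid synthesis, Acacb, whose product malonyl-CoA inhibits Cpt1, was lower by 2.51 and 1.72, and Me1, the cytosolic malic enzyme, was at 12.85, 12.93 and 11.08, over 2-fold lower after 5 days only.

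Among 10 regulators of mitochondrial biogenesis, 1 was over 2-fold higher and 2 lower at 2 days, and 1 higher and 0 lower at 5 days. Of all genes, 6.03% were higher and 4.65% lower at 2 days, and 5.37% and 4.87% at 5 days. Myc, a growth regulator, was at 6.42, 11.07 and 10.74, over 2-fold higher in both Tl groups. Its control value was under the 95th percentile of ERCC, so both folds start from a dim value. Ppargc1a, the coactivator of mitochondrial genes, was at 14.74, 13.38 and 14.04, over 2-fold lower after 2 days only. Ppara, the receptor that induces fatty acid oxidation genes, was at 8.57, 7.14 and 8.33, over 2-fold lower after 2 days and higher by 1.18 on the Tl 5 days array than on the Tl 2 days array. Transcripts of Nrf1 were at 11.54, 12.11 and 11.54 and those of Tfam at 8.74, 8.74 and 9.33, within the limit.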

How the data were processed

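Total RNA of rat kidney from 3 conditions was measured on 1 Clariom S array each. The authors deposited log2 values, 1 per probe set and array. Transcriptome Analysis Console is the software named for the arrays, and its version, the summarization and the normalization are not given in the sources used here, although the distributions of the arrays were nearly equal. The number of arrays limits the precision, and no p-value was computed. Probe sets with a single symbol in the platform annotation were averaged per gene (10 genes had several), which left 15037 genes. Differences of log2 values, counts past 2-fold and medians were computed with Python 3.11.15, numpy 2.4.6 and pandas 2.3.3, and the counting was tested on simulated arrays. Promoter windows and neighbouring genes came from RefSeq (GRCr8), matched by gene ID, and the 4 motifs were searched on both strands. The platform's own build is not given, so no position of a probe set is stated. Members, gene lists and markers were chosen with earlier results of these data known. Members past 2-fold in any comparison were named with the value on each array, the others by role, and of the other lists mainly those with the largest differences. The results were recomputed after quantile normalization, after median centring per array, with values under the 20th percentile raised to it, without genes whose mean was under the 40th percentile, with the highest probe set per gene, at limits of 1.5-fold and 3-fold, and with another NRF1 motif. A result was taken to have moved when it changed by over 1.5-fold, a tolerance chosen with the values known.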

Additional observations from a re-analysis of the deposited data

Results flagged for a closer look

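Slc25a42 and Slc25a34 were below control at 2 days and above it at 5 days, by at least 1.5-fold each way. The log2 differences were -0.61 and 0.73 for Slc25a42 and -0.63 and 0.67 for Slc25a34. The contrast between both times was not tested, as each has 1 array, and Slc25a34 lay after 2 days (6.62) under the ERCC level of 6.83.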

How the results depend on the processing

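Of 75 recomputed differences of carriers past 2-fold, 75 stayed past it in the same direction under quantile normalization, centring, floor, filter and highest probe set. The 75 count each called difference separately under each of these settings. Quantile normalization and the choice of probe set could move little. The sorted values of the Tl arrays already lay within 0.232 (2 days) and 0.384 (5 days) of those of control, and every carrier has 1 probe set. The filter only removes genes, and the floor left every called difference unchanged, so centring was the main setting that could move them. Slc25a2 at 2 days passed it only after centring (-1.03). Of 549 recomputed single differences, 11 changed sign, none larger than 0.36 in size. Centring moved the median of all genes by -0.125 after 2 days, after which 5.00% of all genes were higher and 5.81% lower. With a 1.5-fold limit, 5 carriers were higher and 10 lower at 2 days (all genes 12.0% and 10.7%), 6 higher and 10 lower at 5 days (11.2% and 9.97%), and 5 higher and 4 lower between the Tl arrays (6.37% and 7.67%). With a 3-fold limit, 1 carrier, Slc25a25, was higher and 0 were lower between the Tl arrays (0.599% and 1.35%). The filter removed 7 of 38 carriers, among them Slc25a27, and so moved the medians of the carriers related to uncoupling proteins from 0.84 and 0.00 to -0.59 and -1.03. The NRF1 short form was found in 2 promoters and the CRE, added after the sequences had been seen, in 2, against 0 for the NRF1 core. Signals near those of the ERCC probe sets limit the folds of Slc25a24, Slc25a22 and Slc25a34, and those of Myc and Hmox1. No paired analysis was possible because each condition has 1 array.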
